A study of Mus musculus with 3 samples.

Results

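Transcripts of 6 actin genes and 4 genes of the smooth muscle contractile apparatus were examined in mammary tumours grown in mice from cells of the NDL(UCD) line, which comes from an ErbB2 (Neu) transgenic model. The 10 genes were taken by symbol (Acta1, Acta2, Actb, Actc1, Actg1, Actg2, Myh11, Tagln, Cnn1 and Mylk), and each had 1 row in every file, out of 21881 gene symbols. The series holds a single group of 3 snap-frozen tumours, each of the same line in a different female FVB/N mouse. No normal gland, comparison group or other tumour stands beside them. The cells had been expanded in culture and injected on both sides into mammary fat pads of FVB/NJ mice aged 6 to 8 weeks, and growths of 5 to 10 mm were collected. The fat pads still held the host's own gland, and the RNA is that of whole tissue pieces, host cells included. Numbers 1 to 3 follow the accessions and carry no order, and all 3 tumours stand for a single line. Values are FPKM, which is per length and per library, so levels of different genes can be set side by side, and errors are SD over n = 3 tumours. The deposited intervals corresponded to 11698588, 12417558 and 13377729 fragments in tumours 1, 2 and 3. Of 8 luminal epithelial genes 7 were called above 1 FPKM, against 54.2% of all symbols. The 8 were led by Krt18 (526 ± 143 FPKM), Epcam (202 ± 3.74 FPKM) and Cd24a (160 ± 46.9 FPKM), with Kit (29.5 ± 3.15 FPKM) and Krt19 (0.261, 0.0302 and 4.01 FPKM) lowest.

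Actin forms the thin filaments of muscle and the cytoskeleton of other cells. Actb and Actg1 encode the beta and gamma actins found in nearly every cell. Acta1 and Actc1 encode the skeletal and cardiac alpha actins of striated muscle, whereas Acta2 and Actg2 encode the alpha and gamma actins of smooth muscle. Acta2 is also known from myoepithelial cells of the mammary gland, pericytes and activated fibroblasts. Myh11 encodes the smooth muscle myosin heavy chain, Tagln (SM22) and Cnn1 (calponin) encode actin-binding proteins of smooth muscle, and Mylk encodes the kinase that phosphorylates the myosin light chain and so starts contraction. Many of these genes are known targets of serum response factor, which binds the CArG box.

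The actins are close copies of one another, so their sequences bear on how far a fragment can be assigned to 1 of them. Over 1098 aligned coding bases of the GENCODE vM21 transcripts, leaving out the first codons, Actb and Actg1 were 88.9% identical, Acta1 and Acta2 85.8%, and the lowest pair, Acta2 and Actg1, 82.2%. The first coding bases are shown because the amino terminus is where actins are known to differ most. Capitals mark the start codon.
Acta1: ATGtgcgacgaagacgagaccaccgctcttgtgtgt
Acta2: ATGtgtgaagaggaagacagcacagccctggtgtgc
Actg2: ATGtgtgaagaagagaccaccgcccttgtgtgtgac
Actc1: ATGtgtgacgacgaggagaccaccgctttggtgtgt
Actb: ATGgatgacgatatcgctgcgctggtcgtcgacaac
Actg1: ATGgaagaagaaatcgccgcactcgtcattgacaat

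Each transcript was cut into all windows of 50 bases, and each window was looked up in the annotated transcripts of every other gene. Of the Acta1 windows, 2.22% were found elsewhere, 28 of 1397 in Actb. Of the Acta2 windows 0.35% were found elsewhere, and none of the Actg2, Actc1, Tagln, Cnn1 or Mylk windows was. With windows of 100 bases none of the Acta1 or Acta2 windows was shared. Actg1 stood apart, with 56.7% of its 50-base and 51.05% of its 100-base windows found in other annotated genes. The gene that held most of them was Gm12715, for which the files have no row. Actb had 14.22% of its 50-base windows elsewhere, most of them in Lrrc58. Read length is not stated in the labels, so the values of Actg1 and, less, of Actb are the more uncertain ones. The value of Acta1 is uncertain too. It shares windows and a run of 77 identical bases with Actb, which averaged 936 FPKM against 36.9 FPKM for Acta1. How the authors' counting shared fragments between copies was not tested.

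RefSeq promoter windows on GRCm38.p6 were found for 6 of the 10 genes. The CArG box was sought only as CC, 6 bases of A or T, and GG. The 250 bases before the annotated start held such a box in Acta1, Actc1 and Actg1 and none in Acta2, Cnn1 or Mylk, against 1.47% of 32851 windows overall. Boxes that depart from this pattern or lie outside these 250 bases were not sought. Both strands are covered because the box is its own reverse complement in pattern. The stretches around the 3 boxes are shown because this factor's site is the known common feature of the family, with the box in capitals and each read along the gene's minus strand.
Acta1, chr8:123894814-123894873: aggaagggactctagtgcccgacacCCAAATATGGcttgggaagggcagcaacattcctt
Actc1, chr2:114052888-114052947: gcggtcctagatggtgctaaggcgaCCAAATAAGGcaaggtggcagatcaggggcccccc
Actg1, chr11:120348551-120348610: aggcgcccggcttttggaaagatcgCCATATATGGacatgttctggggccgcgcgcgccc

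The boxes began 73, 47 and 90 bases before the start of Acta1, Actc1 and Actg1. These genes lay at very different levels in the tumours, as the next paragraphs show.

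The cytoplasmic actins made up nearly all actin transcript. Actb (mm9 chromosome 5, 143664795 to 143668403) was at 615, 949.7 and 1244 FPKM in tumours 1, 2 and 3, a mean of 936 ± 315 FPKM, and ranked 36th of 18028 symbols listed above 0. Actg1 (chromosome 11, 120207004 to 120209798) was at 311, 445 and 528 FPKM, a mean of 428 ± 109 FPKM, and ranked 93rd. Both were lowest in tumour 1 and highest in tumour 3. Within a tumour Actb exceeded Actg1 by 1.10 ± 0.13 on the log2(FPKM + 0.1) scale, a fold of 2.15, in 3 of 3 tumours. Actb made up 63.1%, 64.1% and 66.8% of the summed FPKM of the 6 actins in tumours 1, 2 and 3, and Actg1 32.0%, 30.0% and 28.3%. The sum itself was 974, 1481 and 1863 FPKM, so the shares of these 2 genes varied less than the total.

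Acta1, the skeletal muscle actin (chromosome 8, 126415667 to 126418636), was at 28.4, 37.3 and 44.9 FPKM in tumours 1, 2 and 3, with 1029, 1298 and 1739 implied fragments. Its mean was 36.9 ± 8.21 FPKM. Acta2, the smooth muscle alpha actin (chromosome 19, 34315581 to 34329826), was at 18.3, 41.5 and 38.8 FPKM, a mean of 32.9 ± 12.7 FPKM. The ranges of the 2 genes overlapped, and Acta2 was higher than Acta1 in tumour 2 only. Acta2 minus Acta1 was -0.23 ± 0.40 log2 units, less than its own spread (exact two-sided sign-flip permutation p = 0.50, adjusted p = 0.55 over 12 gene pairs). The smallest p that this exact test allows with 3 tumours is 0.25. Actg2, the smooth muscle gamma actin of the gut and urinary tract (chromosome 6, 83462903 to 83486245), was at 1.44, 8.30 and 7.04 FPKM, far lower in tumour 1 than in the other two. Acta2 exceeded it by 2.78 ± 0.70 log2 units, a fold of 6.87. Actc1, the cardiac actin (chromosome 2, 113873025 to 113878547), was at 0.0644, 0.0595 and 0.0267 FPKM on 1, 2 and 1 implied fragments, so its differences between tumours were not detectable at this depth.

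Together the 4 muscle actins made up 4.95%, 5.88% and 4.87% of actin FPKM in tumours 1, 2 and 3, a mean of 5.24 ± 0.563%. Within them Acta1 held 59.0%, 42.8% and 49.4%, Acta2 37.9%, 47.7% and 42.8%, and Actg2 2.98%, 9.52% and 7.76%. Actb exceeded Acta2 by 4.86 ± 0.30 log2 units, a fold of 29.0, and Actg1 exceeded it by 3.75 ± 0.33, a fold of 13.5. Both differences had the same direction in 3 of 3 tumours, the most that the 3 tumours allow (exact permutation p = 0.25, adjusted p = 0.33).

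**Figure D1:**
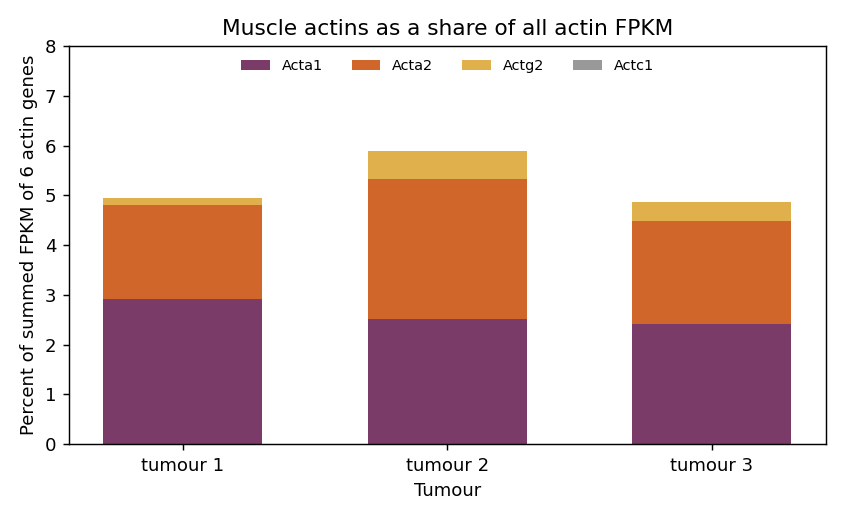
Share of the summed FPKM of the 6 actin genes (percent, linear axis from 0) taken by the 4 muscle actins in tumours 1, 2 and 3, 1 stacked bar per tumour. The bars reach 4.95%, 5.88% and 4.87%, Acta1 and Acta2 fill most of each, the Actg2 part is thinnest in tumour 1, and Actc1 is too low to see.

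Among the contractile genes proper, Tagln was by far the highest. Tagln (chromosome 9, 45737711 to 45744141), which encodes the actin-bundling protein transgelin, was at 17.6, 63.1 and 46.1 FPKM in tumours 1, 2 and 3, a mean of 42.3 ± 23.0 FPKM. Its locus overlaps that of Pcsk7 by 95 bp, and the labels do not state whether strand was used in counting. Tagln minus Acta2 was 0.26 ± 0.33 log2 units, with Tagln the higher in tumours 2 and 3 only (exact permutation p = 0.50, adjusted p = 0.55). Mylk (chromosome 16, 34785036 to 35002520) was at 2.75, 3.24 and 2.88 FPKM, a mean of 2.96 ± 0.256 FPKM. Its ratio of highest to lowest tumour was 1.18 as deposited and 1.38 with GC and length trends removed. The single row of Mylk does not tell the smooth muscle kinase from the longer form of nonmuscle cells or from telokin, which arise from the same gene.

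Cnn1 and Myh11 were the lowest of the contractile genes. Cnn1 (chromosome 9, 21903697 to 21913665) was at 0.40, 1.46 and 2.01 FPKM on 21, 74 and 113 implied fragments, a mean of 1.29 ± 0.818 FPKM. Myh11 (chromosome 16, 14194620 to 14291501) was at 0.734, 0.895 and 1.07 FPKM, a mean of 0.901 ± 0.170 FPKM. Cnn1 minus Myh11 was 0.25 ± 0.86 log2 units and of mixed direction (exact permutation p = 0.75, adjusted p = 0.75). Acta2 exceeded Myh11 by 4.97 ± 0.47 log2 units, a fold of 31.3, and Tagln exceeded Cnn1 by 4.98 ± 0.46, a fold of 31.5. Mylk exceeded Myh11 by 1.62 ± 0.24 log2 units. Each of these 3 differences had the same direction in 3 of 3 tumours (exact permutation p = 0.25, adjusted p = 0.33).

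**Figure D2:**
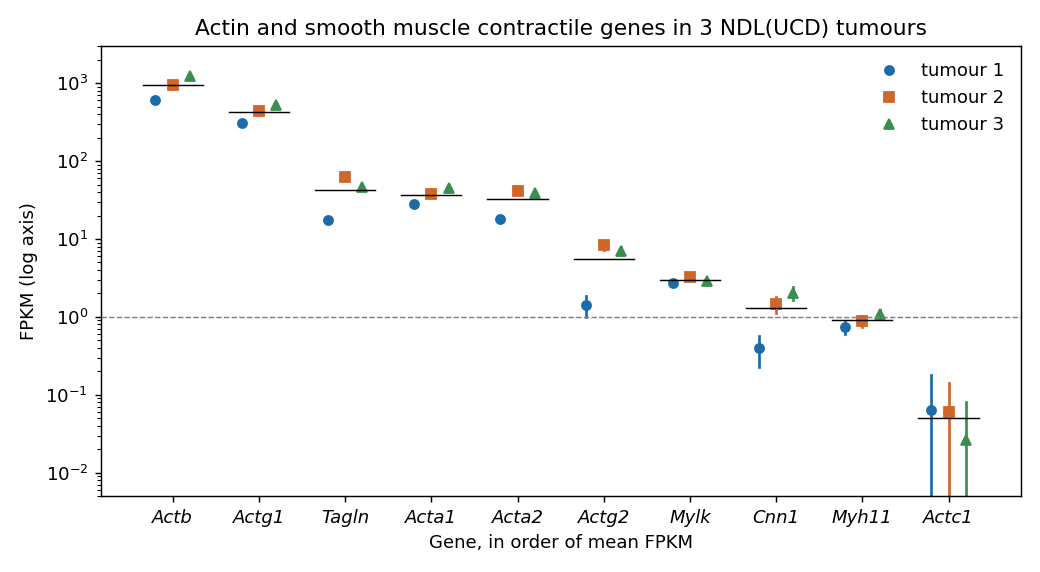
FPKM (log axis) of the 10 genes in tumours 1, 2 and 3, in order of their mean, with the deposited interval as a vertical bar, the mean as a horizontal line and 1 FPKM as a dashed line. Actb and Actg1 lie highest, Tagln, Acta1 and Acta2 overlap at means of 42.3, 36.9 and 32.9 FPKM, and the intervals of Actc1 run to the bottom of the axis.

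Against a level of 1 FPKM, a conventional mark and not a biological boundary, 7 of the 10 genes were called above it in a limma fit over all 18028 symbols listed above 0, at a Benjamini-Hochberg adjusted p under 0.05. These were Actb, Actg1, Tagln, Acta1, Acta2, Actg2 and Mylk, and 54.2% of all symbols were called likewise. Mylk had an adjusted p of 0.000423 and Actg2 of 0.00417. Actc1 was called below it (adjusted p = 7.35e-07), as were 32.5% of all symbols. Myh11 (adjusted p = 0.63) and Cnn1 (adjusted p = 0.83) were not separated from 1 FPKM. Cnn1 was called above it without tumour 1 (limma adjusted p = 0.0231). When each tumour was rescaled to the same FPKM total, which shifted the median symbol by 1.51 log2 units, Cnn1 and Myh11 were called above as well, and 73.4% of all calls were above, against 62.5% as deposited. In order of mean, Tagln, Acta1 and Acta2 could not be ranked, since neighbours changed places between tumours, and the same held for Actg2 against Mylk and for Cnn1 against Myh11. All other neighbours in that order kept their place in 3 of 3 tumours.

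As deposited, 9 of the 10 genes were lowest in tumour 1, all but Actc1. Among the 11058 symbols averaging 1 FPKM or more and listed above 0 in every tumour 59.6% were lowest there, as were 8 of the 8 members that high. A difference between tumours was called where Cochran's Q test on the deposited standard errors passed an adjusted p of 0.05 and the highest tumour had at least 2 times the FPKM of the lowest. That test covers counting error in 1 library per tumour and not the spread between mice. It called 5 of the 8 members that averaged 1 FPKM or more, against 32.4% of all such symbols, and in all 5 tumour 1 was lowest, whereas 15.1% of all such symbols were both called and lowest there. Cnn1 reached that mean only through tumours 2 and 3, so its call and its low value in tumour 1 are not independent of the limit. The largest ratio was that of Actg2, at 5.78 (Q test adjusted p = 3.22e-26), followed by Cnn1 at 5.02 (1.53e-10), Tagln at 3.58 (1.2e-195), Acta2 at 2.27 (1.2e-93) and Actb at 2.02. Acta1 (ratio 1.58), Actg1 (1.69) and Mylk (1.18) did not reach the ratio, and Myh11, with 1.46, lay under the level tested. Without tumour 1 none of the 5 was called, and their ratios were 1.07 to 1.37. The median symbol was itself 1.22 times higher in tumour 2 than in tumour 1, and 1.31 times higher in tumour 3.

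Tumour 1 also differed in how FPKM followed the GC content and length of transcripts. With these trends removed from each tumour, 3 of the 8 genes were called, Actg2, Cnn1 and Tagln, against 17.1% of all symbols. Actg2 was then at 1.99, 7.53 and 5.58 FPKM in tumours 1, 2 and 3, Cnn1 at 0.526, 1.34 and 1.67 FPKM, and Tagln at 24.1, 57.3 and 37.0 FPKM. All 3 were again lowest in tumour 1, as were Acta2 and Actb, 5 of the 8 members against 39.8% of all symbols. Acta2 was at 22.5, 38.3 and 34.3 FPKM, a ratio of 1.70, and lost its call. Actb was at 806, 866 and 1040.4 FPKM, a ratio of 1.29, and lost its call too. Actg1 then varied by a ratio of 1.05 and Myh11 by 1.08, and neither was lowest in tumour 1. For Acta1 and Mylk the direction turned, and tumour 1 was highest, at 41.0 against 33.9 and 34.1 FPKM for Acta1 and at 3.36 against 3.16 and 2.44 FPKM for Mylk. The removal assumes that no true difference follows GC content. It also takes out the overall offset between tumours, so its effect is not that of GC content and length alone. Scaling by median of ratios left the same 3 genes called, with ratios of 4.73, 3.94 and 2.93 for Actg2, Cnn1 and Tagln, and 3099 of all 11058 symbols. Scaling to equal FPKM totals also left these 3, with ratios of 4.89, 4.39 and 3.03, and 3126 of all symbols.

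**Figure D3:**
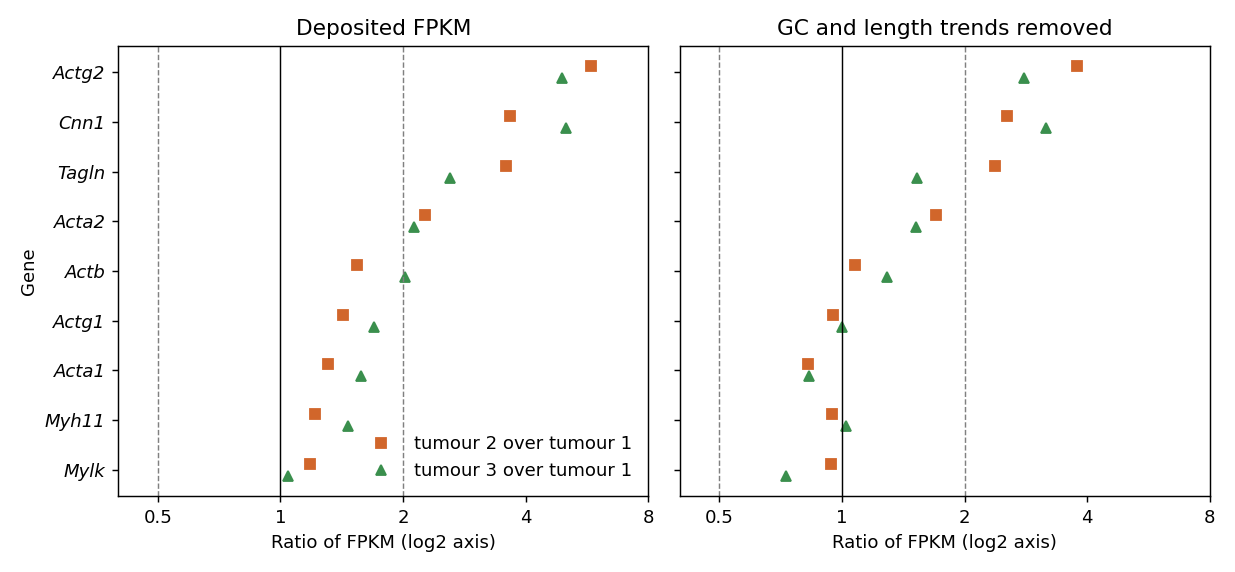
Ratio of FPKM in tumours 2 and 3 over tumour 1 (log2 axis) for 9 of the 10 genes, as deposited on the left and with GC and length trends removed on the right, with dashed lines at 0.5 and 2; Actc1 rests on too few fragments and is not drawn. Actg2, Cnn1 and Tagln stay to the right, up to 5.78 as deposited and 3.79 after removal, whereas Actg1 and Myh11 move close to 1 and Acta1 passes below it.

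Most listed partners of these genes in the contractile apparatus were well expressed. The list also holds genes that smooth muscle shares with other cells, among them Myl6, Cnn2, Cnn3 and Tagln2. Its count is therefore not a measure of smooth muscle. Of 20 listed genes 17 were above 1 FPKM by the same limma test and 1 below, against 54.2% and 32.5% of all symbols, and their median level was 14.0 FPKM against 2.44 FPKM over all symbols tested. The highest were Myl6 (500.2 ± 154 FPKM), the essential myosin light chain shared by smooth and nonmuscle myosin, Tpm1 (182 ± 44.6 FPKM), a tropomyosin, and Csrp1 (52.1 ± 14.6 FPKM), a LIM protein. The lowest were Synpo2 (0.145 ± 0.0294 FPKM) and Des (0.763 ± 0.599 FPKM), which encodes the muscle intermediate filament desmin. Of the 17 that averaged 1 FPKM or more, 3 differed between tumours by the Q test and ratio, against 32.4% of all symbols. One was Myl9, the smooth muscle regulatory light chain, at 3.74, 10.6 and 8.72 FPKM in tumours 1, 2 and 3, low in tumour 1 like Tagln and Acta2. The others, Cald1 (49.4, 32.7 and 12.4 FPKM), the caldesmon gene, and Itga8 (37.1, 23.8 and 16.3 FPKM), were highest in tumour 1. With GC and length trends removed Myl9 was at 5.43, 9.58 and 6.60 FPKM, Cald1 at 42.6, 32.0 and 14.8 FPKM and Itga8 at 29.3, 24.0 and 20.8 FPKM, so that of the 3 only Cald1 still varied by a ratio of 2.

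The nonmuscle relatives exceeded the smooth muscle members in most families. Myh9, the heavy chain gene of nonmuscle myosin IIA, was at 70.6 ± 25.5 FPKM. Myh11 minus Myh9 was -6.09 ± 0.32 log2 units and Myh11 minus Myh10 was -0.58 ± 0.32. The widely expressed calponin genes Cnn2 and Cnn3 were at 18.3 ± 4.69 and 21.5 ± 2.09 FPKM. Cnn1 minus Cnn2 was -3.93 ± 0.79 log2 units and Cnn1 minus Cnn3 was -4.19 ± 1.01. These differences had the same direction in 3 of 3 tumours. Tagln minus Tagln2, its relative of epithelial and blood cells (33.9 ± 10.8 FPKM), was 0.19 ± 0.45 log2 units, negative in tumour 1 only. Of 18 listed genes of cytoplasmic actin turnover and nonmuscle myosin, 17 were above 1 FPKM and none below, against 54.2% and 32.5% of all symbols. Tmsb4x, which encodes the actin-sequestering thymosin beta 4, was highest at 768 ± 144 FPKM, followed by the severing protein gene Cfl1 (268 ± 51.2 FPKM) and Tmsb10 (211 ± 61.2 FPKM), while Myh14 (9.29 ± 3.36 FPKM) and Myh10 (1.39 ± 0.0816 FPKM) were lowest.

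Regulators of the smooth muscle genes were uneven. Of 16 listed regulators of their expression and of contraction, 11 were above 1 FPKM and 2 below, against 54.2% and 32.5% of all symbols. Myocd, which encodes the smooth muscle coactivator myocardin, was at 0.0320 and 0.00664 FPKM in tumours 1 and 3 and listed at 0 in tumour 2, and the repressor gene Klf4 was at 0.497 ± 0.105 FPKM. Srf, the serum response factor gene, was at 2.62 ± 0.643 FPKM, and its widely expressed coactivator genes Mkl1 and Mkl2 were at 1.48 ± 0.456 and 10.5 ± 1.74 FPKM. Among the highest were Rhoa (105 ± 26.4 FPKM), the GTPase upstream of contraction, and the phosphatase subunit gene Ppp1cb (77.6 ± 48.9 FPKM).

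Acta1 and Tnnt2 were high while most striated muscle genes were near 0. Of 14 skeletal muscle genes 12 were listed above 0. Of these, 1 was called above 1 FPKM and 10 below, against 54.2% and 32.5% of all symbols. The 1 above was Mb, the myoglobin gene, at 10.9, 12.6 and 14.3 FPKM. Next came Eno3 (0.658 ± 0.453 FPKM) and Mylpf (0.530 ± 0.0618 FPKM), and Tnnc2 and Myl1 were listed at 0 in all 3 tumours. Without Acta1, which is not in that list, the list summed to 12.5, 13.8 and 16.04 FPKM in tumours 1, 2 and 3, most of it Mb. Of 8 cardiac genes 4, Myh6, Myh7, Myl2 and Myl3, were listed at 0 in all 3 tumours. Of the other 4, 3 were called below 1 FPKM, against 32.5% of all symbols. The exception was Tnnt2, cardiac troponin T, at 67.6, 149 and 54.0 FPKM. Its partners in the troponin complex, Tnni3 and Tnnc1, were at 0.256 ± 0.0952 and 0.178 ± 0.0974 FPKM. Acta1 minus Tnnt2 was -1.17 ± 0.87 log2 units and Acta1 minus Mb was 1.52 ± 0.14, each of 1 direction in 3 of 3 tumours.

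**Figure D4:**
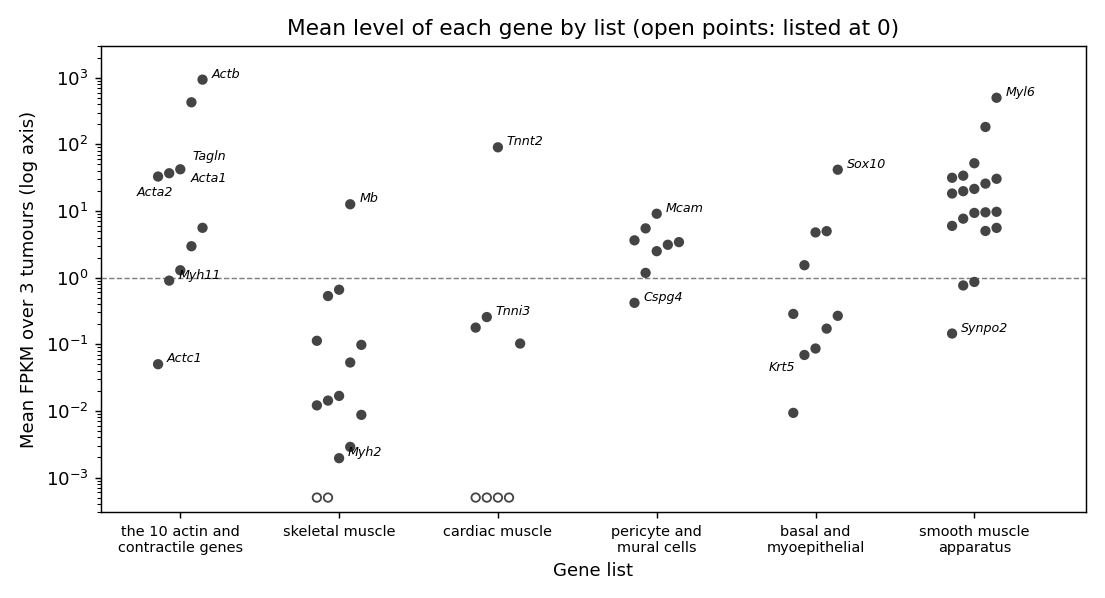
Mean FPKM over 3 tumours (log axis, dashed line at 1 FPKM) of each of the 10 genes and of the genes of 5 lists, 1 point per gene, with genes listed at 0 in all tumours as open points at the bottom. Mb and Tnnt2 stand alone above 1 FPKM among striated muscle genes, at 12.6 and 90.3 FPKM, while Acta1 lies beside Acta2 and Tagln.

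Markers of the cells that could supply smooth muscle transcripts were present at several levels, and in bulk RNA fewer cells of a type and less RNA per cell cannot be told apart. Of 8 pericyte and mural cell genes 6 were above 1 FPKM and 1 below, against 54.2% and 32.5% of all symbols. These genes were led by Mcam (9.10 ± 3.01 FPKM), Rgs5 (5.48 ± 2.07 FPKM) and Pdgfrb (3.63 ± 1.24 FPKM), with Kcnj8 (1.18 ± 0.738 FPKM) and Cspg4 (0.418 ± 0.215 FPKM) lowest. They summed to 23.9, 33.6 and 29.0 FPKM in tumours 1, 2 and 3, the same order as Tagln, Acta2 and Actg2. Rgs5 was highest in tumour 1 as deposited, at 7.59, 5.41 and 3.45 FPKM, but not with GC and length trends removed, at 4.98, 5.69 and 4.96 FPKM. In the myoepithelial (basal) list, 3 of 10 genes were called above 1 FPKM and 6 below, against 54.2% and 32.5% of all symbols. The 3 included Krt14 at a limma adjusted p of 0.0379, and 2 genes were called above with a pseudocount of 0.01, with median-of-ratios scaling, with a mean filter of 0.5 FPKM, or without tumour 1 or 2. These 3 were Sox10 (41.7 ± 4.41 FPKM), Id4 (4.98 ± 2.13 FPKM) and Krt14 (2.80, 10.4 and 1.07 FPKM), while Krt5 (0.0690 ± 0.0711 FPKM) was near 0 and Krt6b was at 0.00557 and 0.0224 FPKM in tumours 1 and 3 and listed at 0 in tumour 2. This list summed to 46.9, 64.5 and 50.05 FPKM. Of 10 fibroblast genes 9 were above 1 FPKM, against 54.2% of all symbols. This list was led by Col3a1 (98.9 ± 35.6 FPKM), Col1a2 (75.7 ± 23.9 FPKM) and Postn (55.6 ± 31.0 FPKM), with Thy1 (2.03 ± 1.06 FPKM) and Fap (1.49 ± 0.730 FPKM) lowest, and it summed to 270.1, 358 and 309.7 FPKM. Postn, a matrix protein gene, was highest in tumour 1 as deposited, at 88.6, 51.1 and 27.1 FPKM, but lowest there with GC and length trends removed, at 41.5, 61.3 and 45.9 FPKM. Fap, Dcn and Lum were also highest in tumour 1 as deposited, and of these Lum still was after removal. All 3 sums were lowest in tumour 1 and highest in tumour 2, as Tagln was. That order was not particular to these lists. The luminal epithelial sum (982, 1317 and 1189 FPKM) and the contractile apparatus sum (743, 1107 and 1062 FPKM) had it too. The sums of the cytoplasmic actin and skeletal muscle lists were instead highest in tumour 3, and that of the regulators in tumour 1. The cardiac sum was lowest in tumour 3. Of the genes averaging 1 FPKM or more, 5 of 7 mural, 1 of 4 basal and 6 of 10 fibroblast genes were lowest in tumour 1, against 59.6% of all symbols. After removal of the trends these counts were 2, 0 and 5, against 39.8% of all symbols. Sox10 alone gave 36.6 of the 46.9 FPKM of the basal sum in tumour 1. With GC and length trends removed the mural sum (25.4, 32.0 and 26.2 FPKM) and the fibroblast sum (250.3, 352 and 299 FPKM) were again lowest in tumour 1 and highest in tumour 2. The basal sum was then 63.2, 58.9 and 40.5 FPKM, and the luminal sum 1239, 1214 and 989 FPKM. By the Q test and ratio 5 of 7 mural, 2 of 4 basal and 5 of 10 fibroblast genes differed between tumours, against 32.4% of all symbols. Their part in the levels of Acta2, Tagln, Actg2 and Cnn1 was not tested.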

How the data were processed

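Total RNA of 3 tumours was depleted of ribosomal RNA and made into directional, randomly primed libraries from 50 ng, per the labels' protocols. Per the file headers, the authors deposited 1 FPKM value a row with lower and upper bounds and a quantification status. TopHat, Cufflinks and the mm9 build are named, without versions, in the submitters' processing notes. Loci are given as deposited, on mm9 and counted from 1. FPKM is relative, so a few abundant loci lower all others. Each tumour came from a different mouse, per the labels.

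The 22310 rows gave 21881 symbols after repeated symbols were added up, and 182 symbols with a status other than OK were left out. Each bound was taken to lie 2 standard errors from the FPKM, and implied fragments were (FPKM / standard error) squared. Intervals cover counting error only. Each symbol's level was set against 1 FPKM by an intercept-only limma fit (version 3.58.1, R 4.3.3; trend and robust moderation) of log2(FPKM + 0.1) less the same function of 1 FPKM. Cochran's Q on log FPKM, with 2 degrees of freedom, compared the tumours for symbols averaging 1 FPKM or more and listed above 0 in every tumour. P-values were adjusted by Benjamini-Hochberg over the whole table. Gene pairs were tested by an exact sign-flip permutation test.

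GC content and length of the longest GENCODE vM21 transcript matched 98.3% of symbols by name. Lowess fits with a span of 0.3 took their trends out of each symbol's log2(FPKM + 0.1) less its mean over tumours. A bias shared by all tumours thus stays, while the overall offset between tumours is taken out too. The median symbol of tumour 1 moved by 0.211 log2 units, against 0.215 by median-of-ratios scaling. Promoter windows come from RefSeq.

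The members and the 9 gene lists were chosen with earlier results of these data known. The genes named are the 10 members, the 3 highest and 2 lowest of each list (1 of them is not reported here), and 5 genes most alike to Acta2 and to Actb. Srf, Mkl1, Mkl2, Rock1, Rock2, Dcn, Lum, Ppp1r12a, Myl9, Cald1, Itga8, Myh9, Cnn2, Cnn3 and Tagln2 were named after their values were seen. Some genes that the rule names are given in the closing section.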

Additional observations from a re-analysis of the deposited data

How the results depend on the processing

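All 9 gene pairs with 1 direction in 3 of 3 tumours kept it under both other pseudocounts, with GC and length trends removed and without any 1 tumour. Cnn1 minus Myh11 was -0.043 to 0.75 log2 units when 1 tumour was left out. The actin shares moved by no more than 1 SD with the trends removed. That removal acts only on each gene's differences between tumours. Mean differences between genes and mean shares could therefore hardly move, and their stability is no check of levels between genes. The number of members called different between tumours, 5 as deposited, was 3 with median-of-ratios scaling, 3 with equal FPKM totals and 3 with the trends removed, and 0 to 5 when 1 tumour was left out (0 without tumour 1, 3 without tumour 3). Over all symbols these calls numbered 3587 as deposited, 1879 with the trends removed, 7576 with a ratio of at least 1.5, and 629 to 3278 when 1 tumour was left out; the cause was not tested. Of the members, 7 were above 1 FPKM in every alternative but equal totals (9) and the omission of tumour 1 (8). Testing only symbols with a mean of at least 0.5 FPKM removed Actc1, which left 0 members and 109 symbols called below. Myh11, at -0.15 log2 units against 1 FPKM, was at 1.26 with equal totals and, in an alternative added after seeing the data, at 0.37 without loci under 300 bp. Cnn1, at 0.10, ranged over -0.31 to 0.72 when 1 tumour was left out and was below 1 FPKM without tumour 2 (-0.10) or 3. Depth limits Actc1 most, at 1 to 2 fragments a tumour, and then Cnn1 in tumour 1 at 21. No paired analysis was possible because the series holds 1 group.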

Other observations

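Regulators of contraction went both ways between tumours. Of the 13 listed that averaged 1 FPKM or more, 6 were lowest in tumour 1, against 59.6% of all symbols. With GC and length trends removed 4 were, against 39.8%. Among the 6 was Rhoa, at 75.2, 116 and 125 FPKM in tumours 1, 2 and 3. With the trends removed Rhoa ranged more widely, at 55.8, 117 and 167 FPKM. Mylk, the light chain kinase gene, was lowest in tumour 1 as deposited but highest there after removal. The genes next named were picked after their values were seen, for being highest in tumour 1. Rock1 and Rock2, which encode the kinases that inhibit the light chain phosphatase, were at 13.7, 4.45 and 4.33 FPKM and at 12.2, 3.71 and 3.11 FPKM in tumours 1, 2 and 3. Ppp1r12a, the targeting subunit of that phosphatase, was at 22.4, 9.62 and 8.43 FPKM, and its catalytic subunit gene Ppp1cb at 133, 58.0 and 41.6 FPKM. Once trends with GC content and length were taken out, Rock1 was at 8.03, 4.94 and 6.58 FPKM, Rock2 at 7.68, 4.07 and 4.50 FPKM, Ppp1r12a at 13.1, 10.6 and 12.9 FPKM and Ppp1cb at 81.7, 63.0 and 62.1 FPKM, and the ratios between tumours were smaller. As deposited, 6 of the 13 regulators differed between tumours by the Q test and ratio, against 32.4% of all symbols.

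Among 3759 other symbols averaging 10 FPKM or more, the 5 whose course over the 3 tumours was most like that of Acta2 were Bcar3, Dhrs3, Tpi1, Naa10 and Ube2m, at Euclidean distances of 0.0201 to 0.0436 between centred log2(FPKM + 0.1) values. For Actb they were Inppl1, Trabd, Kif1c, Spnb3 and Bola2, at 0.005 to 0.0139. Among the members, the nearest to Actb was Actg1 at 0.181 and the next Acta1 at 0.260, and the nearest to Acta2 was Actb at 0.426, followed by Tagln at 0.464. With GC and length trends removed these orders changed: Tagln was nearest to Acta2 at 0.389, before Actb at 0.472, and Myh11 was nearest to Actb at 0.239, before Actg1 at 0.260. The 5 genes named for Acta2 were then 0.0654 to 0.392 away from it, and the 5 named for Actb 0.0367 to 0.131. With 3 tumours such distances describe only which tumours were high and low.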
